A study of Macaca mulatta with 8 samples.

Results

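Microglia and brain macrophages of rhesus macaque brain tissue are described here as 3465 nuclei out of 58220 kept in a single-nucleus RNA-seq series, or 5.95% (exact Clopper-Pearson 95% interval 5.76 to 6.15%). Members were chosen by measured values, the UMIs of 9 genes, so those genes are no finding here. A nucleus was kept with at least 500 unique molecular identifiers (UMIs, which mark single captured RNA molecules) and 300 genes. A kept nucleus was a member if at least 3 of 9 genes of the myeloid lineage had a UMI and their summed UMIs came to at least 10 per 10000. The 9 genes were CSF1R, CX3CR1, P2RY12, PTPRC, DOCK8, APBB1IP, ADAM28, INPP5D and RUNX1. The study compared male rhesus macaques breathing sevoflurane, an inhaled anaesthetic, with male control animals. The labels give about 2.5 to 3% sevoflurane for 4 hours on approximately postnatal day 7 and again at 14 and 28 days. Tissue of 2 control animals was mixed and divided into 4 samples, and tissue of 1 sevoflurane animal was divided into another 4, so the 4 samples of a group are portions of a single pool. Age at collection is not given, and the labels name the tissue hippocampus in one field and amygdala in another.

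Microglia are the resident macrophages of brain tissue. They depend on signalling through the CSF1 receptor, survey synapses and take up debris and dying cells, and in infancy they take part in the pruning of connections. Border-associated macrophages sit along vessels, in the meninges and in the choroid plexus. They share the myeloid programme with microglia and are usually told from them by genes such as MRC1, CD163, LYVE1 and F13A1.

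The deposited matrix pools 8 libraries, told apart by a number at the end of each barcode, and no label pairs a number with a sample. Sevoflurane and control were therefore not compared, the matrix counts as 1 sample, and no p-value is given. Values per library below are descriptions, and treatment, animal and library cannot be told apart in them. Levels are CPM, the UMIs of a gene over all UMIs of the summed nuclei, scaled to 1000000, and their intervals cover counting error only. The members held 8990721 UMIs with a median of 1778 per nucleus, against 4424 in the other 54755 nuclei. In all, 429 barcode sequences occurred in more than 1 library, and 56 members carried one of them.

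Part of the members carried the RNA of another cell class as well. Sub-clustering gave 11 groups, and in 4 of them the summed markers of neurons, astrocytes, oligodendrocytes or their precursors reached at least 0.5 of their level in nuclei of that class. These 4 held 600 members (17.3%), called mixed here, with a median of 5371 UMIs per nucleus against 1626 in the 2865 unmixed members. A doublet caller marked 296 of the mixed and 49 of the unmixed members. Sub-clusters 4, 7 and 8, mixed with neuron, oligodendrocyte and precursor markers, held 287, 101 and 69 nuclei, of which 39.7, 80.2 and 69.6% were marked. Sub-cluster 6 held 143 nuclei, of which 37.1% were marked, and is named for no single class. Its astrocyte markers summed to 0.672 of the level in nuclei of the astrocyte gate alone, and its endothelial markers to 0.163 of that gate's level. Its leading genes by ratio included the endothelial genes EMCN (128 CPM), ERG, EGFL7 and FLT1 (719.8 CPM, against 37.1 CPM in sub-cluster 1, the largest unmixed group). Marked nuclei were not removed. The share of mixed members ran from 10.1% of the members of library 4 to 69.5% in library 8, so levels are given for all members and for unmixed members. Marker sums of other classes were also above 0 in unmixed members. The 9 neuron markers summed to 1364 CPM there (libraries 989 to 1928) and to 4519.6 CPM in nuclei meeting only the neuron gate. The 6 oligodendrocyte markers in the matrix summed to 1838 CPM (libraries 590.4 to 2366) against 20312 CPM in nuclei of that gate alone. The 8 astrocyte markers summed to 3089.5 CPM (libraries 1911 to 3247), of which SLC1A3 made up 2504 CPM, against 1756 CPM in the other kept nuclei and 16605 CPM in nuclei of that gate alone. The 7 endothelial markers in the matrix summed to 570.0, 157 and 8386 CPM in the same order. Of the unmixed members 1327 (46.3%) also met the gate of another class, as did 1915 of all members. Removing those from all members left 1550 members, with 2336 genes higher and 2376 lower than in the other kept nuclei, against 1260 and 869 with them. Their part in the levels given here was not tested beyond this. Markers of T or NK cells summed to 47.2 CPM with 3 of 12 at 0, those of B or plasma cells to 31.3 CPM and those of mast cells to 10.8 CPM.

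The genes of the rule describe how the members were chosen and carry no test. CSF1R, the receptor for the growth factors CSF1 and IL34, stood at 431 CPM in members (649 in unmixed members) against 4.63 CPM in other nuclei. The fractalkine receptor CX3CR1 stood at 297 CPM in members (429 in unmixed members) against 2.53 CPM in other nuclei. P2RY12, the ADP receptor that steers microglial processes, stood at 449.7 CPM in members (659 in unmixed members) against 30.4 CPM in other nuclei. The lipid phosphatase INPP5D had 1301 CPM in members, 65.0-fold the level elsewhere, and the transcription factor RUNX1 had 352 and 2.64 CPM. The median member had a UMI for 6 of the 9 genes, and 105 members had one for all 9. Summed rule UMIs had a median of 70.0 per 10000, 77.6 in unmixed and 22.4 in mixed members. At the edge of the rule, 57 members lay between 10 and 12 per 10000 and 98 nuclei with at least 3 of the genes lay just outside, between 8 and 10. CD163 was at 103 CPM in the former and 60.2 CPM in the latter. The 296 members with exactly 3 genes had CD163 at 754 CPM, and 285 nuclei left out with 2 genes had it at 267 CPM.

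The label was checked with 10 microglia and 10 macrophage markers. P2RY12, CX3CR1 and ADAM28 of the microglia list are also rule genes and check nothing. Of the microglia markers, OLFML3 is not listed under that symbol. TMEM119, a widely used microglia marker, reached 0.334 CPM in members and cannot serve as a marker in this matrix. The sugar transporter SLC2A5 stood at 433 CPM in members (696 in unmixed members) against 4.86 CPM in other nuclei, and the lysophosphatidylserine receptor GPR34 at 231 CPM against 4.92 CPM. SALL1, a transcription factor that marks resident microglia, had 53.6 against 6.36 CPM. FRMD4A did not set the members apart, at 2842 CPM against 3348 CPM, and all other classes expressed it. As a measure of free RNA, 60.2% of unmixed members and 1.49% of neuron nuclei (medians of 1626 and 7925 UMIs) had a UMI of SLC2A5, which the rule did not use. After thinning to 1000 UMIs per nucleus the shares were 46.3% and 0.247%, with 204 and 192 shallower nuclei left out. Neuron nuclei that met the rule are members and were left out of these shares, which lowers the neuron side. Before thinning, other genes outside the rule ran from 0.460% (CSF3R) to 3.53% (CD163) in neuron nuclei.

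Members were unevenly spread over the libraries. Libraries 1 to 8 in order held 529, 603, 951, 931, 118, 119, 119 and 95 members. As shares of the kept nuclei of each library these were 6.57, 7.35, 9.82, 9.70, 2.03, 1.98, 2.12 and 1.82%. Libraries 1, 2, 3 and 4 were the high ones, and their exact 95% intervals (from 6.04% upward) lay above those of libraries 5, 6, 7 and 8 (up to 2.53%). The gap was wider for unmixed members alone, which made up 5.90, 6.56, 8.73, 8.72, 0.824, 0.715, 0.890 and 0.554% of the nuclei in library order. Mixed members made up between 0.671% and 1.26% of the nuclei of every library. Depth differed between the same libraries, with median UMIs of other nuclei from 3449 to 3701 in libraries 1 to 4 and from 6132 to 6352 in libraries 5 to 8. With nuclei of at least 1000 UMIs thinned to 1000 before the rule was applied, and shallower nuclei left out, the shares in library order were 5.39, 6.06, 8.43, 8.13, 0.937, 1.00, 0.922 and 0.913%. Unmixed members had medians of 1639 to 1722 UMIs in libraries 1 to 4 and of 1102.5 to 1211 in libraries 5 to 8. The thinned shares may therefore leave out members unequally between libraries, which was not tested.

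**Figure D1:**
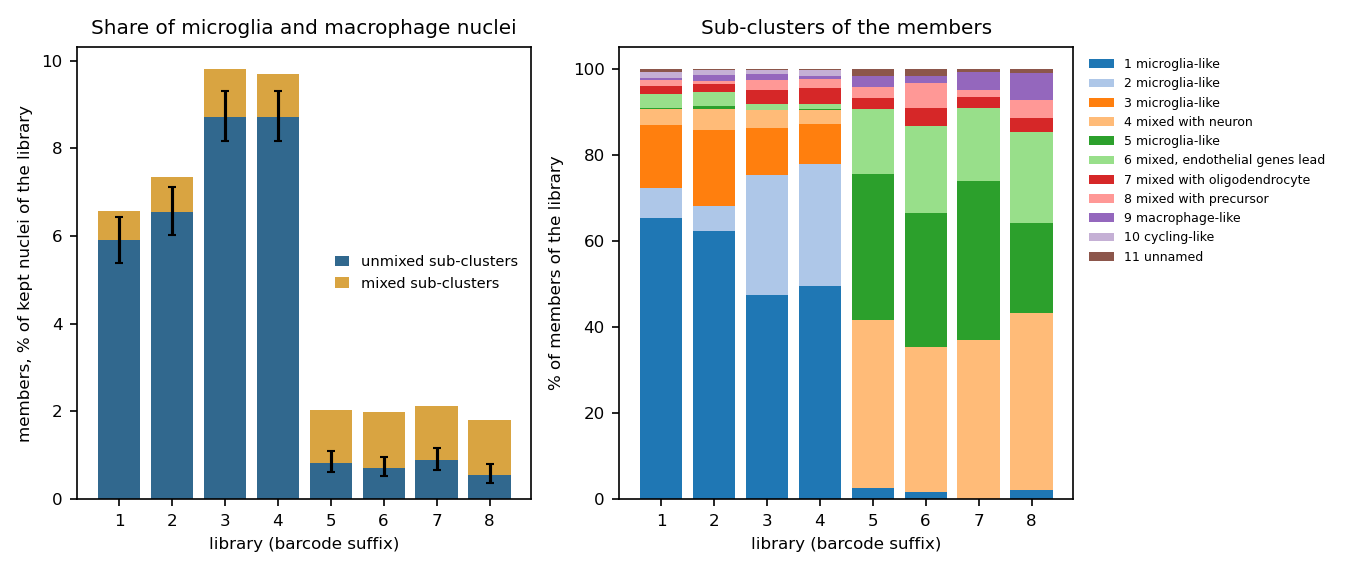
Left, members as a percent of the kept nuclei of each library (x axis, the number at the end of the barcode), split into unmixed (blue, with exact 95% counting intervals) and mixed sub-clusters (ochre). Right, sub-clusters as a percent of the members of each library. The blue bars of libraries 1 to 4 stand between 5.90 and 8.73%, those of libraries 5 to 8 between 0.554 and 0.890%.

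Among the 7 unmixed groups, 4 passed a larger share of the microglia markers than of any other list, were named microglia-like and held 2763 nuclei. Every gene of these nuclei entered the clustering, so the genes below describe the groups and test nothing. The microglia list shares P2RY12, CX3CR1 and ADAM28 with the rule, so the names are no independent support for the label. The mixed sub-clusters 6, 7 and 8 also passed 7 of 9 of its markers. Leading genes by ratio were ranked against all other members, the mixed groups included. Sub-cluster 1, with 1638 nuclei, carried more of the complement subunit genes C1QA (409 CPM) and C1QB (319 CPM) and of the transcription factor MAF (320.0 CPM) than the other members summed (139, 107 and 98.5 CPM). Among those, the mixed sub-cluster 4 alone held 2704696 UMIs, beside 1071238 in sub-cluster 2 and 638799 in sub-cluster 3. These ratios therefore do not set sub-cluster 1 apart from the other microglia-like groups. The cytokine gene IL18 stood at 809, 759.7, 871 and 925 CPM in libraries 1 to 4 in sub-cluster 1. It stood at 814, 845, 915 and 1066 CPM in sub-cluster 3, which was the higher of the pair in each of these libraries. TTR, best known from the choroid plexus, was the gene with the largest ratio in sub-cluster 1, but its level of 14.9, 30.8, 61.9 and 351 CPM in libraries 1 to 4 rested on library 4.

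Sub-cluster 2, with 602 nuclei, had OLR1, TMEM156, APOC1B, LPL and CALB2 as its leading genes by ratio. LPL, which splits triglycerides of lipoproteins, stood at 567 CPM against 139 in sub-cluster 1. OLR1, a receptor for oxidised lipoprotein, stood at 222 CPM, APOC1B at 153 CPM and the secreted phosphoprotein SPP1 at 1194 CPM. LPL within it was 842, 417, 564 and 550.4 CPM in libraries 1 to 4, above the 153, 143, 131 and 137 CPM of sub-cluster 1 in each of them. Libraries 3 and 4 held 266 and 263 of its nuclei and libraries 1 and 2 held 37 and 36. Libraries 5 to 8, with 48, 43, 50 and 29 unmixed members, held 0. Sub-cluster 2 made up 28.0 and 28.2% of the members of libraries 3 and 4 and 6.99 and 5.97% in libraries 1 and 2. No library correction was made, and most microglia-like nuclei of libraries 5 to 8 formed a sub-cluster of their own, described below as sub-cluster 5.

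Sub-cluster 3, with 375 nuclei, had IL4R, PLSCR1, IL1B, CASP5 and TNFRSF10A as its leading genes by ratio. IL4R, a subunit of the interleukin-4 receptor, stood at 526 CPM against 68.1 in sub-cluster 1, and the cytokine gene IL1B at 159.7 against 25.2 CPM. The kinase MAP3K8 reached 389.8 CPM and the caspase CASP5 149 CPM. SPP1 stood at 1771 CPM, CD163 at 2707 CPM and MRC1 at 1473 CPM, while P2RY12 (333 CPM) and CX3CR1 (269 CPM) were below their levels in sub-cluster 1 (749.6 and 486 CPM). The microglia markers did not all go this way. SLC2A5 was 988, 1076, 1050 and 956 CPM in libraries 1 to 4, against 621, 632, 624 and 685 CPM in sub-cluster 1. GPR34 was lower, at 247, 242, 247 and 254 CPM against 374, 374, 475 and 414 CPM. IL1B in sub-cluster 3 was 94.5, 124, 241 and 165 CPM and CD163 was 2449, 2878, 2683 and 2771 CPM in libraries 1 to 4. In each of these libraries both were above their levels in sub-cluster 1. Its nuclei came from libraries 1 to 4 only, at 78, 106, 103 and 88. It passed 7 of 9 microglia markers and also 5 of 10 macrophage markers, and was named by the larger share. That share includes markers that are rule genes. Its macrophage markers summed to 5047 CPM and its microglia markers to 4363 CPM.

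Sub-cluster 5, with 148 nuclei and a median of 1125 UMIs, held most of the microglia-like nuclei of libraries 5 to 8 (40, 37, 44 and 20) and 7 nuclei of the others. Of the rule genes P2RY12 stood at 830.4 CPM and CX3CR1 at 656 CPM. The rule genes did not all lie on the same side of sub-cluster 1. INPP5D was 3106, 2785, 2623 and 2590 CPM in libraries 5 to 8, against 1738, 2007, 2165 and 1983 CPM in sub-cluster 1 in libraries 1 to 4. PTPRC was lower, at 176, 296, 169 and 288 CPM against 478, 420, 526 and 511 CPM. SLC2A5 was 308, 197, 412 and 329 CPM in libraries 5 to 8, each lower than the 621, 632, 624 and 685 CPM of sub-cluster 1 in libraries 1 to 4. GPR34 was 66.1, 123, 206 and 164 CPM against 374, 374, 475 and 414 CPM, again lower in each. The cytokine gene TGFB1 stood at 1051 CPM, against 365 in sub-cluster 1, and SCML4 at 656 CPM. TGFB1 in it was 1057, 1035, 1312 and 535 CPM in libraries 5 to 8. FKBP5 was 132, 173, 225 and 206 CPM in libraries 5 to 8, against 4335, 4186, 4795 and 4615 CPM in sub-cluster 1 in libraries 1 to 4. CD163 was 44.1, 0, 75.0 and 41.1 CPM against 1473, 1433, 1459 and 1441 CPM, and SPP1 44.1, 0, 18.7 and 0 CPM against 306, 291, 401 and 448 CPM in the same libraries. The CD163 and SPP1 values of sub-cluster 5 rest on few UMIs. Since sub-clusters 1 and 5 were drawn from different libraries, group and library cannot be told apart between them. The share of all measured genes that separate between them without overlap was not counted, so whether the genes named here are unusual cannot be told.

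The 3 small unmixed groups differed from microglia in other ways. Sub-cluster 9, with 48 nuclei from all 8 libraries, was macrophage-like, and all 10 macrophage markers passed there. Sub-cluster 10, with 35 nuclei (8, 7, 7 and 13 in libraries 1 to 4), was cycling-like, with the proliferation genes MKI67 at 536 CPM and TOP2A at 1194 CPM. It also carried microglia genes, such as SLC2A5 at 692 CPM and P2RY12 at 368 CPM. Libraries 5 to 8 held 0 cycling-like nuclei among 170 unmixed members, and 3 counts of 170, the limit that a count of 0 allows here, come to 1.76%. Sub-cluster 11, with 19 nuclei, met no marker list and stayed unnamed. Its leading genes were the Src-family kinase FGR (841 CPM), the class II genes HLA-DRA (1198 CPM) and CD74 (815 CPM) and the integrin ITGA4 (1554 CPM). Of the marker lists, 3 of 8 monocyte or neutrophil, 3 of 9 microglia and 2 of 10 macrophage markers passed there, so no list gave it a name. Among single genes picked after their values were seen, FCN1 and LYZ stood at 204 and 255 CPM on 8 and 10 UMIs, and SALL1, ADAM28 and C3 had 0 UMIs.

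**Figure D2:**
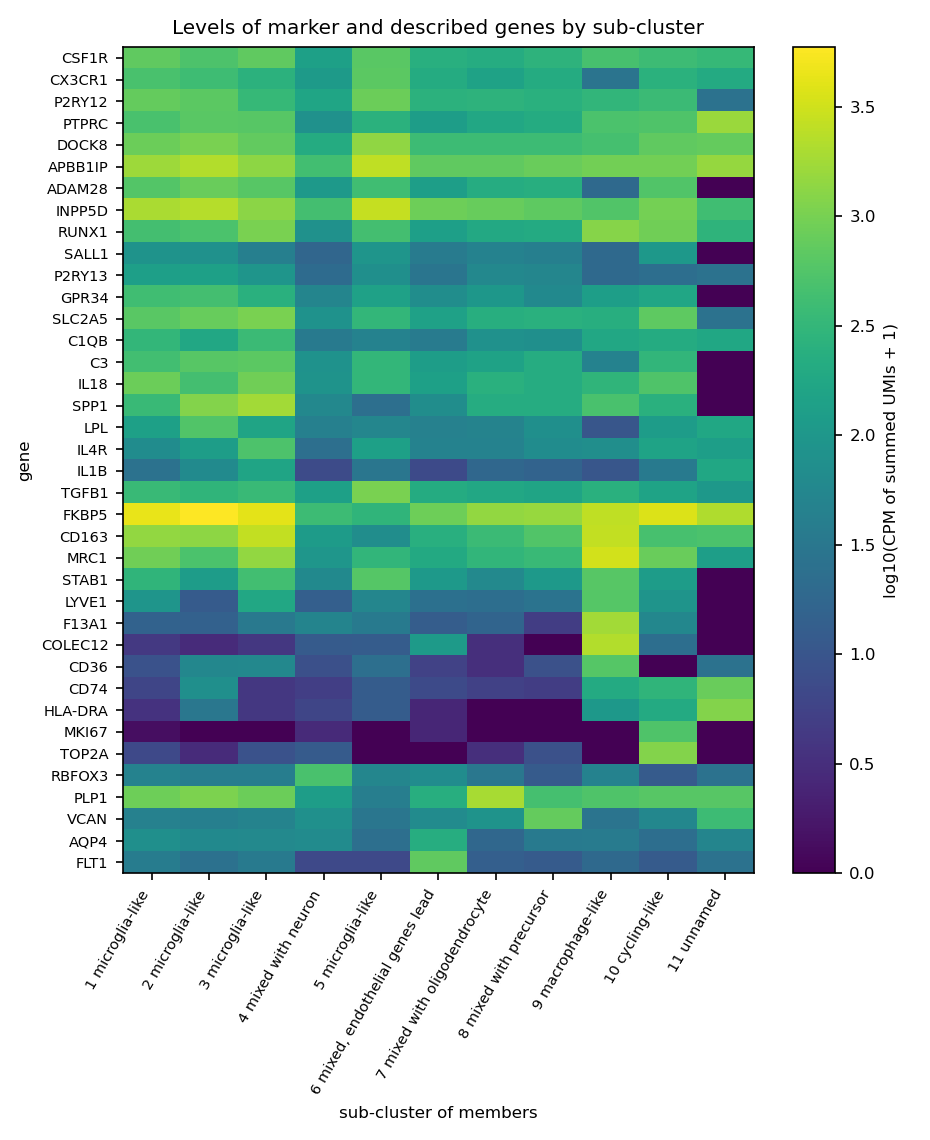
Levels of rule, marker and described genes (rows) in the 11 sub-clusters of the members (columns), as log10 of CPM plus 1. F13A1, COLEC12 and CD36 are bright in sub-cluster 9, MKI67 and TOP2A in sub-cluster 10 and HLA-DRA in sub-cluster 11. CD163 is at 1445, 1365 and 2707 CPM in sub-clusters 1, 2 and 3, and the column of sub-cluster 5 sums 141 nuclei of libraries 5 to 8 and 7 of the others.

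Members were then set against all other kept nuclei. A gene was called higher or lower at 2-fold or more, with at least 10 CPM on the higher side and the same direction in each of the 8 libraries. Of 10494 genes measured, 1260 (12.01%) were called higher and 869 (8.28%) lower, the rule genes left out. Unmixed members gave 1940 higher (18.1%) and 2246 lower (20.9%) of 10740, with direction checked in the 5 libraries that had 50 or more of them. Of the 2129 calls over all members, 2016 were made in the same direction without the mixed groups. The median log2 ratio over all genes was 0.13. Since myeloid genes chose the nuclei, these calls describe the members and are no test of them. A gene under 10 CPM on one side was measured only through the other side, which fixed its direction. Among the list genes below, ITGAM, C3 and CD74 were under 10 CPM in other nuclei. Counts of list genes called higher or lower are therefore no test either.

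Genes of microglial identity and of myeloid transcription stood high. Of the identity list 11 of 13 measured genes were higher and 0 lower, with a median log2 ratio of 4.63 (5.23 for unmixed members). MERTK, a receptor for the uptake of dying cells, had 848 CPM in members (1259 in unmixed members) against 33.4 CPM in other nuclei. ITGAM, the integrin subunit CD11b, had 205 against 3.44 CPM. All 13 measured myeloid transcription factors were higher, with a median of 3.23. IKZF1, the lymphoid and myeloid factor Ikaros, was 158-fold (95% counting interval 145 to 174) higher, IRF8, a factor needed for microglial development, 70.3-fold and MEF2A 9.21-fold. MEF2C, which neurons also express, was 2.35-fold higher, at 1396 against 595 CPM.

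Complement and phagocytosis genes showed the same direction. In the complement list 9 of 13 were higher, with a median log2 ratio of 5.66. C3, the central complement component, had 309 CPM in members (479.9 in unmixed members) against 3.16 CPM in other nuclei. C1QA, a chain of the initiator C1q, was 62.8-fold higher, and VSIG4, a complement receptor of macrophages, 129.8-fold. CD46, a membrane regulator of complement, was among those not called. In the phagocytosis list 11 of 14 were higher (15 of 16 in unmixed members), among them the kinase SYK (108-fold), the exchange factor VAV1 (97.3-fold) and the engulfment adaptor ELMO1 (6.16-fold, at 1977 CPM). TREM2, a lipid-sensing receptor, was at 13.2 against 0.0622 CPM on 119 UMIs, higher in 6 of 8 libraries, and was not called.

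Of the purine genes 2 of 6 were higher. ENTPD1, the ectoenzyme CD39 that degrades extracellular ATP, had 1516 CPM in members (2313 in unmixed members) against 28.9 CPM in other nuclei, and the ADP receptor P2RY13 was 40.8-fold higher. The ATP-gated channel P2RX4 was higher in 7 of 8 libraries, at 88.9 against 38.6 CPM, and was not called. P2RX7 was at 79.9 against 54.3 CPM. In unmixed members 2 of 6 purine genes were called lower.

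Signalling genes of innate immunity were mostly higher. Of the chemokine and cytokine list 9 of 10 were called. IL18 had 448 CPM in members (721 in unmixed members) against 2.51 CPM in other nuclei, and IL1B, at 32.0 CPM, was 147-fold higher. The chemokine CCL3 and the cytokine TNF stayed under 10 CPM, at 3.89 and 7.12 CPM. Of pattern recognition and NF-kB genes 10 of 13 were higher, with TLR4, the lipopolysaccharide receptor, 98.2-fold and TLR7, an RNA sensor, 102-fold higher. Of the interferon list 6 of 8 were higher, led by the receptor gene IFNGR1 (427 against 21.7 CPM) and by IFI44L (43.8 against 2.24 CPM). A further 8 of its 16 genes, ISG15 and IFIT1 among them, stayed under 10 CPM. All 6 measured antigen presentation genes were higher, with the co-stimulator CD86 102-fold higher and the class II chaperone CD74 at 21.8 against 0.691 CPM.

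Of the lipid, lysosome and damage-associated list 12 of 19 were higher (16 of 21 in unmixed members). SPP1 had 429.7 CPM in members (716 in unmixed members) against 9.21 CPM in other nuclei, and CLEC7A, a glucan receptor, was 118-fold higher at 12.1 CPM. APOE, the main apolipoprotein of brain, had 545 CPM (723 in unmixed members) against 97.4, and astrocyte nuclei had 641 CPM. GPNMB stayed at 3.11 CPM. Among neurodegeneration risk genes 9 of 13 were higher, with ABI3 121-fold, the phospholipase PLCG2 28.4-fold, PICALM 4.57-fold and SORL1 3.32-fold higher. Of the cytoskeleton and adhesion list 17 of 20 were higher, FYB1, an adaptor of immune cells, by 127-fold and PLXDC2 by 6.10-fold.

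The lists of growth factors and ion channels had median log2 ratios of 0.31 and 0.53, beside 0.13 for all genes, and the neurotransmitter list lay lower at -0.95. Of growth factor and synapse contact genes 2 of 10 were higher, TGFB1 (268 against 20.5 CPM) and ENTPD1. IGF1 was at 29.4 against 34.8 CPM and not called, and BDNF was called lower, by 2.48-fold. Of ion channel genes 5 of 14 were higher. KCNK13, the potassium channel THIK-1 of microglia, had 181 against 11.5 CPM, 15.8-fold (95% counting interval 14.9 to 16.7) higher, and KCNK6 was 13.9-fold higher. KCNMA1 was 2.60-fold lower. Of the neurotransmitter list 2 of 15 were higher and 5 lower (3 and 12 of 15 in unmixed members). SLC1A3, a glutamate transporter best known from astrocytes, had 1804 CPM in members (2504 in unmixed members) against 235 CPM in other nuclei, and nuclei of the astrocyte gate had 2228 CPM. SLC1A2, the other astrocyte glutamate transporter, had 265 CPM in unmixed members and 8424 CPM in astrocyte nuclei. The glutamate receptor genes GRIA1 and GRIN2A were 2.74-fold and 2.70-fold lower.

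Of the heat shock and stress list 4 of 12 were higher in members (7 of 13 in unmixed members), with FKBP5, a co-chaperone of the glucocorticoid receptor, at 2773 CPM in members (4539 in unmixed members) against 92.3 CPM in other nuclei. The haem oxygenase gene HMOX1 was 30.9-fold and TXNIP 6.02-fold higher, while the heat shock genes HSPA8 (82.4 against 36.1 CPM) and HSP90AA1 (87.9 against 45.2 CPM) were not called.

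Outside the lists, the called genes of largest ratio included receptors, adaptors and exchange factors of myeloid cells. LCP2, the adaptor SLP-76, was 203-fold (95% counting interval 182 to 225) higher at 259 CPM. SIRPB2 was 204-fold, the exchange factor FGD2 180.0-fold, CLEC12A, an inhibitory lectin receptor, 177-fold, NCF4, a subunit of the phagocyte oxidase, 157-fold and CD48 153-fold higher. PZP, a protease inhibitor of the alpha-2-macroglobulin family, had 1055 CPM in members (1675 in unmixed members) against 7.03 CPM in other nuclei. SRGAP2, a regulator of membrane protrusion, had 3446 against 314 CPM. The lower genes of largest ratio were TFR2, a transferrin receptor (5.31-fold), the glutamate receptor GRM4 (5.28-fold), the proline transporter SLC6A7 (4.90-fold) and the potassium channel KCNH3 (4.34-fold). RBFOX1, a neuronal splicing factor, had 2712 CPM in all members, 1517 in unmixed members and 7214 elsewhere.

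**Figure D3:**
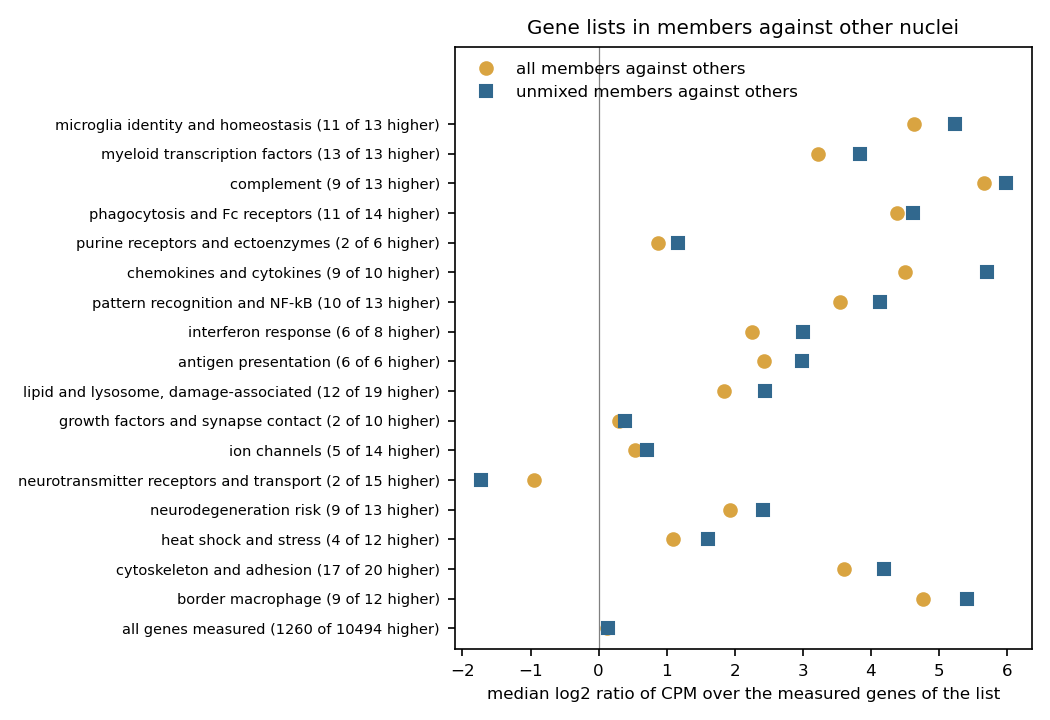
Median log2 ratio of CPM over the measured genes of each list (rows), for all members (circles) and unmixed members (squares) against other kept nuclei; each row name gives how many measured genes were called higher in all members. Complement lies furthest right at 5.66 and 5.99, neurotransmitter genes lie left of 0 at -0.95 and -1.73, and all genes lie at 0.13 and 0.14.

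Genes of the unmixed members varied over the libraries to very different degrees. The genes in this paragraph and the next were picked after their values were seen. The share of all measured genes that split between the same libraries was not counted, so whether these genes are unusual cannot be told. P2RY12 was 565, 596, 696, 715, 877, 574, 642 and 572 CPM in libraries 1 to 8, and the high and low libraries were interleaved. ENTPD1 ranged from 1869 in the lowest library, a median of 2273 and 2767 in the highest. CX3CR1 was 404, 374, 448, 444, 574, 519, 519.7 and 462 CPM, slightly higher in each of libraries 5 to 8 than in any of libraries 1 to 4. CD163 was 1642, 1719, 1565, 1588, 50.6, 0, 91.7 and 154 CPM, high in libraries 1 to 4 and low in libraries 5 to 8 with no overlap. SPP1 was 592, 562, 857, 857, 33.7, 0, 15.3 and 0 CPM, split the same way. FKBP5 was 4263, 4349, 5046, 4993, 118, 222, 214 and 154 CPM, again with no overlap. In the other kept nuclei FKBP5 was 130.2, 132, 155, 155, 36.4, 33.7, 31.8 and 32.8 CPM in the same order.

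Further genes followed the same split without reaching such ratios. MRC1 was 928, 1083, 856, 931, 219, 278, 367 and 286 CPM, IL18 763, 736, 727, 754, 219, 222, 290.4 and 286 CPM and IFNGR1 677, 642, 714, 777, 219, 222, 214 and 109.9 CPM, each higher in each of libraries 1 to 4 than in any of libraries 5 to 8. PZP was 1604, 1709, 1705, 1822, 658, 612, 779.5 and 549.6 CPM, with no overlap. TGFB1 and STAB1 leaned the other way. STAB1, a scavenger receptor, was 271, 316, 266, 246, 607, 630.1, 504 and 352 CPM, with no overlap. TGFB1 was 325, 353, 346, 335, 894, 815, 1131 and 352 CPM, and library 8 lay among libraries 1 to 4. The 29 to 50 unmixed members of libraries 5 to 8 held few UMIs, and a level of 0 there allows up to 55.6 CPM in library 6 and 66.0 CPM in library 8. The oligodendrocyte marker sum of the same nuclei was also higher in libraries 1 to 4 (1131 to 2366 CPM) than in libraries 5 to 8 (590.4 to 779.5 CPM). Its part in these values was not tested.

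**Figure D4:**
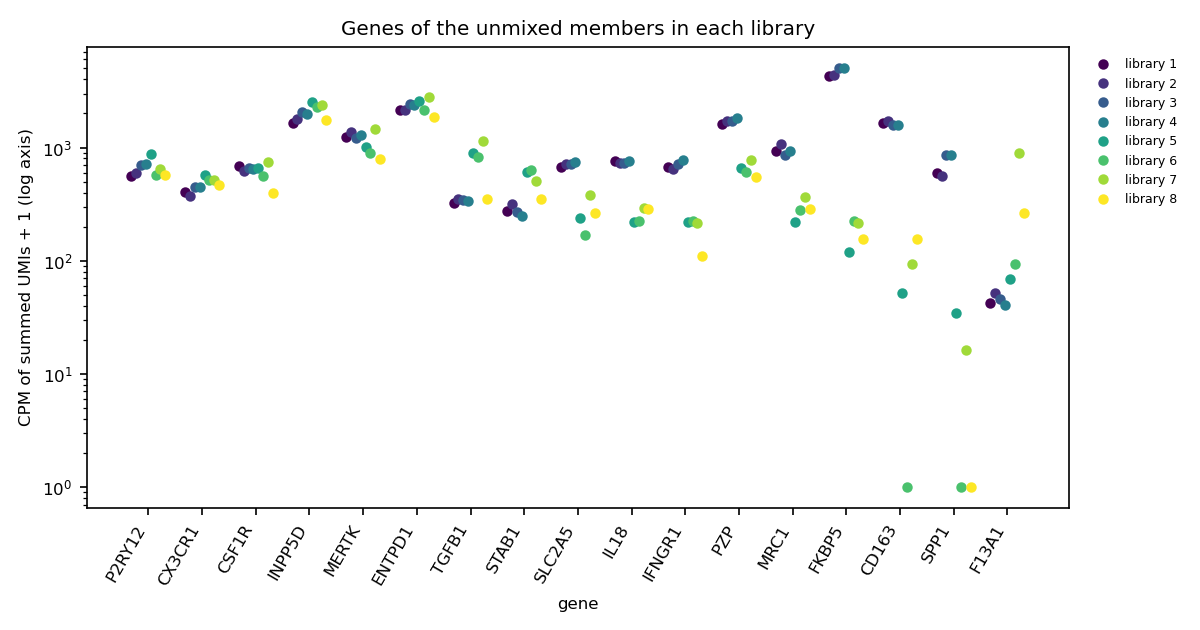
CPM plus 1 (log axis) of 17 genes in the unmixed members of each library, 1 point per library in order from left to right within a gene. Points of P2RY12 lie close together, while FKBP5 lies at 4263 CPM or more in libraries 1 to 4 and at 222 CPM or less in libraries 5 to 8, and CD163 and SPP1 split likewise; points at 1 mark libraries with 0 UMIs.

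The 48 macrophage-like nuclei made up 1.68% of unmixed members (exact 95% interval 1.24 to 2.22%) and came as 2, 8, 15, 7, 3, 2, 5 and 6 from libraries 1 to 8. They were set against the 2763 microglia-like nuclei at a minimum of 100 CPM, with no check of direction by library, since none held 50 of them. Of 3067 genes measured, 401 (13.1%) were 2-fold or more higher and 307 (10.01%) lower. Of the border macrophage list 8 of 10 were higher. MRC1, F13A1, COLEC12, CD36, CD163L1 and LYVE1 were among the markers that named the group, and every gene entered the clustering. Values of this comparison therefore describe the group and test nothing. A gene under 100 CPM on one side was measured only through the other side, which fixed its direction. COLEC12, a scavenger receptor of the collectin family, had 2199 against 3.22 CPM, 683-fold (95% counting interval 406 to 1239) higher. F13A1, the transglutaminase factor XIII A, had 1805 against 17.6 CPM. The scavenger receptors CD36 and CD163L1 were 23.1-fold (95% counting interval 16.8 to 31.5) and 13.6-fold (95% counting interval 11.1 to 16.5) higher, and LYVE1, a hyaluronan receptor, 7.11-fold (95% counting interval 5.40 to 9.25). The endocytic adaptor DAB2 had 3913 against 512 CPM. Of the 48 nuclei 10.4% were marked as doublets, against 0 to 2.38% in the microglia-like groups. Their mural or fibroblast markers summed to 156 CPM, against 17.2 to 23.2 CPM in those groups. Nuclei of the mural or fibroblast gate alone had 3851 CPM of these markers and 1388 CPM of the macrophage markers. The part of such RNA in the ratios was not tested.

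Other markers of this list did not divide the classes so clearly. MRC1, the mannose receptor, was 3.87-fold (95% counting interval 3.47 to 4.31) higher, but the microglia-like nuclei had 859.6 CPM. Those nuclei include sub-cluster 3, where MRC1, CD163 and STAB1 were above their levels in sub-cluster 1 in each of libraries 1 to 4. CD163, the haemoglobin scavenger receptor, was at 2676 against 1549 CPM, under the 2-fold threshold, and MS4A7 at 302 against 488 CPM. The libraries contributed unequally to the classes, and CD163 in microglia-like nuclei differed between libraries. With the microglia-like libraries weighted by their share of the macrophage-like UMIs, an alternative chosen after seeing the data, CD163 in microglia-like nuclei was 1089 CPM and the ratio 2.46-fold, past the threshold. STAB1, 2.19-fold higher as reported, then lay under it at 1.84-fold, and COLEC12 was 264-fold higher, while 8 of 10 of the border macrophage list were still higher. CD163 had a UMI in 73.3% of unmixed members and 3.53% of neuron nuclei. A rule on 2 or more of MRC1, F13A1, CD163, LYVE1, STAB1 and SIGLEC1 in place of the sub-clusters would take in 1971 of the 3465 members, and against the 442 members with a UMI of none of these genes, the direction reversed for 37 of the 67 called genes followed in this comparison.

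Of the antigen presentation list 4 of 6 genes were higher in the macrophage-like nuclei and 0 lower, CD74 with 202 against 21.0 CPM and HLA-DRA with 101 against 9.23 CPM on 11 UMIs. Of the phagocytosis list 3 of 12 were higher and 1 lower, and of the pattern recognition list 1 of 7 was higher and 2 lower. As single genes MSR1, a scavenger receptor, was 9.17-fold (95% counting interval 6.52 to 12.7) higher, CD14 8.61-fold (95% counting interval 5.31 to 13.4), TLR2 8.41-fold (95% counting interval 4.25 to 15.4) and CLEC7A 14.0-fold (95% counting interval 7.86 to 23.8). The complement receptors C3AR1 and C5AR1 were 3.16-fold (95% counting interval 1.92 to 4.92) and 3.15-fold (95% counting interval 2.11 to 4.54) higher, while C3 itself had 5 UMIs and was 10.9-fold (95% counting interval 4.65 to 33.5) lower. CD44, a hyaluronan-binding adhesion receptor, had 495 against 6.01 CPM, and NRP1, a semaphorin and VEGF co-receptor, 1521 against 316 CPM. The cholesterol exporter ABCA1 was 8.66-fold (95% counting interval 6.06 to 12.1) higher. RBPJ, the transcription factor of the Notch pathway, was singled out after its values were seen, at 9164 CPM on 1000 UMIs against 203 CPM.

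Microglial genes were low in the macrophage-like nuclei. Of the identity list 0 of 10 were higher and 6 lower. SLC2A5 was 3.11-fold (95% counting interval 2.10 to 4.81) lower, GPR34 3.02-fold (95% counting interval 1.79 to 5.53) and MERTK 2.28-fold (95% counting interval 1.77 to 2.97). The sorting receptor SORL1 was 5.63-fold (95% counting interval 3.68 to 9.11) and the glutamate transporter SLC1A3 4.36-fold (95% counting interval 3.42 to 5.65) lower. CX3CR1 had 3 UMIs (27.5 CPM against 443 CPM), a ratio of 16.1 (95% counting interval 5.51 to 78.2) of microglia-like over macrophage-like. LPL had 1 UMI against 237 CPM in microglia-like nuclei. Among the rule genes PTPRC, the common leukocyte antigen CD45, was at 504 against 532 CPM, an interval of the ratio from 0.712 to 1.24, and RUNX1 was 2.29-fold (95% counting interval 1.91 to 2.73) higher.

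**Figure D5:**
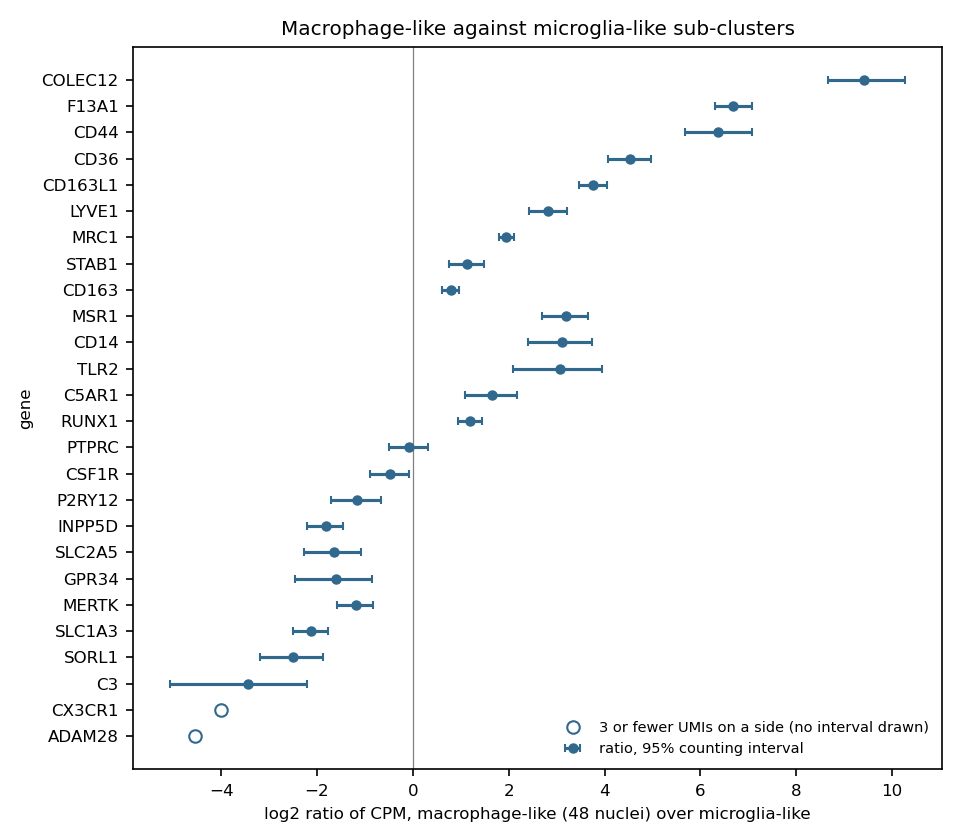
Log2 ratio of CPM in the 48 macrophage-like over the microglia-like nuclei (x axis) for 26 genes, with 95% counting intervals; open circles have 3 or fewer UMIs on one side. COLEC12, F13A1 and CD44 lie furthest right and ADAM28 and CX3CR1 furthest left, and the interval of PTPRC spans 0.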

How the data were processed

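Nuclei were isolated from frozen tissue and made into libraries with the 10x Genomics 3' kit, version 3, per the labels' protocols. The authors deposited 1 matrix of UMI counts per gene and nucleus, made with Cell Ranger 3.1.0 per the file headers. CASAVA 1.8 and Seurat are also listed, per the submitters' processing notes, without a role, and the genome build is not given in the sources used here. The matrix holds 59749 barcodes, 21748 genes and 331133661 UMIs. In libraries 1 to 4 every barcode met the filter of 500 UMIs and 300 genes, and in libraries 5 to 8 it removed 1529. Gene names are the matrix's symbols, with 646 taken from a table of gene IDs and 4621 genes left under their IDs.

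From the counts, UMIs were summed over nuclei and scaled to CPM. Levels have exact Poisson, ratios conditional binomial and shares exact Clopper-Pearson 95% intervals, which cover counting error only. A side with fewer than 3 counts was set to 3 before a ratio was formed. Members were clustered with scanpy 1.11.5 (log of counts per 10000, 2000 variable genes, 20 principal components, 15 neighbours, Leiden resolution 0.5, no library correction). An unmixed group took a name where a share of at least 0.5 of a type's markers reached 20 CPM and 5-fold over other nuclei. The type of largest share gave the name where several met this. This scoring, the level of 0.5 for mixed groups and the 100 CPM minimum were set after the data were seen. Doublets were scored with Scrublet at an expected 0.8% per 1000 nuclei. Reference classes were nuclei meeting exactly 1 gate of the same form and not the rule. The comparison was tested on simulated data, which were Poisson counts drawn from a single pooled profile with known folds set in some genes. Those counts held no variation between nuclei or libraries beyond counting and depth. They therefore check the calculation and not the calls in these data. The members and the 17 gene lists were chosen with earlier results of these data known. Genes named by rule were the 9 rule genes, per list the 2 called genes of largest ratio in each direction and the 2 of highest level, outside the lists the 10 of largest ratio and of highest level, and for macrophage-like nuclei the 2 called per list and 8 over all genes in each direction. Other list genes, markers and sub-cluster leading genes named in the text were chosen after their values were seen. A planned search of promoter motifs was not run, as no promoter table was used here.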

Additional observations from a re-analysis of the deposited data

Results flagged for a closer look

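Of 71 sets of 8 library values looked at, 3 had a library standing apart by Dixon's ratio, which chance gives in about 1 of 20 sets. Macrophage-like nuclei made up 20.7% of the unmixed members of library 8, which were 6 of 29 nuclei, and 10% in the next library. F13A1, a macrophage gene, stood at 124 CPM in all members of library 7 against 52.4 CPM in the next library, and at 887 CPM against 264 CPM in unmixed members. Library 7 held 5 macrophage-like nuclei among 50 unmixed members.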

How the results depend on the processing

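The share of members was 6.46% with the rule at 5 per 10000, 5.48% at 20 per 10000, 5.44% with at least 4 rule genes and 5.71% without nuclei marked as doublets. It was 4.73% of the nuclei with at least 1000 UMIs when each was thinned to 1000. Without mixed groups, an alternative chosen after seeing the data, it was 4.97%. Removing members that met another class's gate left 1550 members (2.75%), with 2336 genes higher and 2376 lower. Leaving out 1 library at a time gave 5.18 to 6.41% and 2514 to 3370 members, 1271 to 1321 genes higher and 779 to 959 lower. Counts of genes also moved without mixed groups (1940 higher, 2246 lower), at 3-fold (776 and 97, since fewer genes reach it), with libraries weighted equally (537 lower) and with the rule at 20 per 10000 (1375 lower). The cause was not tested. TMM scaling shifted the median log2 ratio by 0.11. Over 2499 alternative values of single genes in members against others, 0 reversed a call and 1035 left the counting interval of the reported value. A reversal was a change of sign for a called gene, and calls lost without one were not counted here. The genes followed were mostly named for large ratios or high levels, so a change of sign was unlikely from the start.

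Macrophage-like nuclei were 2.29% of members when marked doublets and nuclei of another gate were removed before clustering, and 1.25 to 1.62% leaving out 1 library at a time (389 to 488 genes higher, 314 to 367 lower). A minimum of 10 CPM, added after seeing the data, gave 1204 higher and 528 lower. Classes cut by macrophage genes with a UMI instead of sub-clusters gave 56.9% macrophage-like, 32 genes higher and 11 lower, with 1971 members in that class. With microglia-like libraries weighted as in the macrophage-like nuclei, also added, counts were 422 higher and 330 lower, and of the 67 called genes followed 5 lay under 2-fold (IFI44L, KCNQ1, SEMA4D, IL4R and STAB1) and 0 reversed. With classes cut by macrophage genes the log2 ratio turned positive for ST6GALNAC3 0.18, P2RY13 0.45, CX3CR1 0.44, SLC1A3 0.64, IFNGR1 1.13, RUNX2 0.51, LHFPL1 0.48, LPL 0.74, ADAM28 0.53, KCNQ3 0.12, ARHGAP22 0.82, ENTPD1 0.77, PZP 0.84, FMNL3 0.39, IRAK3 0.56, SELPLG 0.32, INPP5D 0.26, IL18 1.24, SEMA4D 0.25, MERTK 0.99, CECR2 0.038, NLRP1 0.52, IL4R 0.52, LPCAT2 0.54, IRF8 0.099, C3 0.59, SLC2A5 1.04, GPR34 0.70, P2RY12 0.30, and negative for IL1RAP -0.22, MX2 -0.40, MAMU-DMA -0.29, HLA-DRA -0.79, CLEC7A -0.94, ANO6 -0.17, PLXNC1 -0.77, RETN -0.053. No paired analysis was possible because no label pairs a library of the matrix with a numbered sample, and the comparison of sevoflurane with control, its block and DESeq2 were not run for the same reason. The promoter motif search was not run. With 29 to 50 unmixed members in each of libraries 5 to 8, low levels there rest on a few UMIs.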

Other observations

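Values of the unmixed members fell into separate sets of libraries for several genes, picked after their values were seen. The share of all measured genes that did so was not counted. In libraries 1 to 8 in order, C3 was 443, 445, 506, 532, 186, 463, 259.8 and 132 CPM, SLC1A3 2567, 2476, 2562, 2587, 1552, 1760.5, 1559 and 945 CPM, SLC2A5 676, 709, 713, 748, 236, 167, 382 and 264 CPM, APOE 762, 764, 728, 715, 354, 408, 397 and 549.6 CPM and GPR34 346, 338, 433, 395, 118, 92.7, 168 and 109.9 CPM. SLC1A3, SLC2A5, GPR34 and APOE were higher in each of libraries 1 to 4 than in each of libraries 5 to 8, and C3 overlapped through library 6. PLXDC2 was 3261, 3391, 5061, 4894, 5145, 4021, 4662 and 3825 CPM, and there the low libraries were 1 and 2. LYVE1, a macrophage gene, was 131, 106, 90.5, 74.9, 67.5, 92.7, 107 and 109.9 CPM, with no such separation. As no label pairs a library with a sample, these values belong to no group.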
